A study of Mus musculus with 12 samples.

Results

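The mitochondrial ribosomal proteins were taken as every gene of the count files whose symbol begins with Mrpl or Mrps followed by a number and at most 1 letter, which gave 78 of 52535 genes, 49 with large subunit names and 29 with small subunit names. They were measured by mRNA sequencing in 3 T-cell lymphoma (T-ALL) lines, 240, 242 and 352. Each line came from 1 mouse carrying the transgenes Lck-Dlx5 and Lck-MyrAkt2, so that a homeobox gene and an activated Akt2 kinase are driven in T cells by the Lck promoter, and both groups carry both transgenes. Per the labels, each line gave 1 placebo-treated control library and 1 library from cells treated with PKF118-310, an inhibitor that keeps β-catenin from binding Tcf proteins. No normal T cells were compared here, and the ages of the mice are not given in the labels.

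Mitochondrial ribosomes translate the few proteins that the mitochondrial genome encodes, all of them subunits of the respiratory chain and the ATP synthase. Their RNAs are made in the mitochondrion, whereas their proteins are encoded in the nucleus, made in the cytosol and imported. Many of these proteins descend from bacterial ribosomal proteins and others are found only in mitochondria. Some names mislead, since the products of Mrps18a and Mrps30 sit in the large subunit and that of Mrps36 belongs to the α-ketoglutarate dehydrogenase complex.

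The treated library of line 242 stood apart from the other 5. It held 604984 counts, whereas the others held between 3160824 and 13766638, and 11.8% of its counts came from mitochondrially encoded genes against 1.84% to 3.10% elsewhere. It also had the most genes with at least 1 count, 21241, in spite of the fewest counts. All 12 T-cell markers examined were detected in each library except this one, where 11 were, and their summed level was 3121.64 CPM (TMM-scaled counts per 1e6 library counts) there and 3389.13 to 6465.53 CPM elsewhere. In the same library the 5 B-cell markers summed to 83.5 CPM, nearly all from Pax5, and the 5 stromal or epithelial markers to 53.8 CPM. In the other 5 libraries these 2 lists reached 3.19 CPM at most. The 5 myeloid markers summed to 53.8 CPM there and to 10.4 to 44.0 CPM elsewhere, mostly Itgam, and the 3 erythroid markers to at most 0.319 CPM. Lyz2, a defining myeloid marker, and Hbb-bs, an erythroid one, had no count in any library. The part of these features in the results for line 242 was not tested, so the test of treatment was run with and without that line, and values for lines 240 and 352 alone leave it out.

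The promoters of the members were searched for 8 short motifs, none of which was in more than 49.3% of them. RefSeq promoter sequences on GRCm38.p6, from 250 bases before to 50 bases after each start, were matched for 69 members. On either strand, 23.2% of these held the letters GCGCANGCG, recognised by NRF1, a factor known for nuclear genes of mitochondrial function, compared with 15.3% of 8599 promoters of tested genes and 6.47% of 27025 promoters in all. The letters CCGGAAG, of the ETS type bound by GABP, were in 36.2% of members, 20.5% of tested genes and 9.12% of all promoters. For AAGATGGC, a YY1 motif, the shares were 17.4%, 5.3% and 2.88%. The Tcf/Lef letters CTTTGAT were in 0 of 69 members, 2.44% of tested genes and 3.72% of all promoters, which says only that these letters are not in these windows. Other motifs were as frequent or less frequent in members than in tested genes. The CCAAT box letters GCCAAT were in 10.1% of members, 21% of tested genes and 15.2% of all promoters, and the GC box letters GGGCGG in 49.3%, 66.5% and 35.9%. The E-box CACGTG, of the kind Myc binds, was in 7.25%, 10.7% and 7.24%, and the TATA box letters TATAAA in 5.8%, 6.19% and 14.2%. The NRF1 letters read nearly the same on both strands, so neighbouring matches can overlap. Matches upstream of 6 members are printed below with the motif in capitals, and none touches an annotated exon. Mrpl20 and Mrpl41 were the 2 members called in lines 240 and 352, and the others are examples of the NRF1 and ETS letters in members described below.
Mrpl20, E-box, chr4:155802831-155802864, plus strand: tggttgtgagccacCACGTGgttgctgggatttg
Mrpl41, CCAAT box, chr2:24975140-24975173, minus strand: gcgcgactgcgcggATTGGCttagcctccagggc
Mrpl12, NRF1 motif, chr11:120484543-120484579, plus strand: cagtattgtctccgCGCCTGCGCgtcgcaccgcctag
Mrpl17, NRF1 motif, chr7:105811114-105811150, minus strand: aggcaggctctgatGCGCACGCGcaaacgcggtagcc
Mrpl17, ETS motif, chr7:105811304-105811337, minus strand: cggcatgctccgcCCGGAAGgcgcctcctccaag
Mrpl58, ETS motif, chr11:115403721-115403751, plus strand: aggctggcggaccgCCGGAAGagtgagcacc
Mrpl52, ETS motif, chr14:54426848-54426882, plus strand: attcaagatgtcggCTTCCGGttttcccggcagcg

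The change after PKF118-310 was set beside these motifs without a test. In lines 240 and 352 the median log2 fold change was 0.12 in members with the NRF1 letters and 0.12 in those without. It was 0.08 and 0.14 with and without the ETS letters, 0.06 and 0.13 for YY1, 0.10 and 0.14 for the GC box, 0.08 and 0.13 for both the E-box and the CCAAT box, and 0.02 and 0.13 for the TATA box. With line 242 included, the medians with and without a motif were -0.01 and 0.03 for NRF1, -0.08 and 0.08 for ETS, and 0.05 and 0.00 for YY1. They were -0.03 and 0.08 for the GC box and -0.10 and 0.04 for the CCAAT box, which 7 members held. For the E-box, in 5 members, they were 0.12 and -0.003, the other order than in lines 240 and 352. For the TATA box, in 4 members, they were -0.13 and 0.03. Members also often faced a neighbour. For 36 of 78 (46.2%), a gene on the opposite strand started within 1000 bases and ran the other way, as did 27.2% of 11760 tested genes. Several of these neighbours also serve mitochondria, among them Ndufs6 of complex I (29 bases from Mrpl36), the seryl-tRNA synthetase gene Sars2 (172 bases from Mrps12) and Twnk, the mitochondrial DNA helicase (116 bases from Mrpl43). These pairs include genes that overlap. Mrpl46 and Mrps11 faced each other, with 412 bases between their starts and 173 exon bases shared. In the fit of lines 240 and 352, Mrpl46 gave a log2 fold change of -0.04 ± 0.16 (SE) and Mrps11 of 0.23 ± 0.15, and neither passed the threshold (edgeR quasi-likelihood adjusted p = 0.920 and 0.369).

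Levels were compared between members as mean control CPM per kilobase of exon, over 3 libraries. All but Mrpl53 were detected throughout, and the 77 others ran from 3.03 to 70.1 CPM per kb with a median of 16.3. Mrpl18, whose bacterial counterpart binds the 5S rRNA, was highest at 70.1 ± 5.27 CPM per kb (SD, n = 3). Mrpl12, which forms part of the ribosomal stalk and also binds the mitochondrial RNA polymerase, followed at 64.5 ± 12.5, and Mrpl34 at 44.0 ± 26.0. The spreads of these 3 between lines overlap. Lowest were Mrpl33 at 3.03 ± 1.41, Mrps35 at 3.94 ± 0.0557 and Mrps10 at 4.61 ± 1.56 CPM per kb, whose spreads between lines also overlap. These SDs are between lines and do not compare genes within a library. Exon length was the union over all transcripts, so a gene with long, rarely used exons appears low. Mrpl53 had 0 counts in both libraries of lines 240 and 242, which allows up to 0.744 to 4.96 CPM by unscaled library total. In the control and treated libraries of line 352 it had 3 and 1 counts. GENCODE vM21 places 88% of its exon bases in Gm42688 on the same strand, so its reads cannot be assigned. Exon bases shared with another gene occurred in 33 members, on the same strand in 8.

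**Figure D1:**
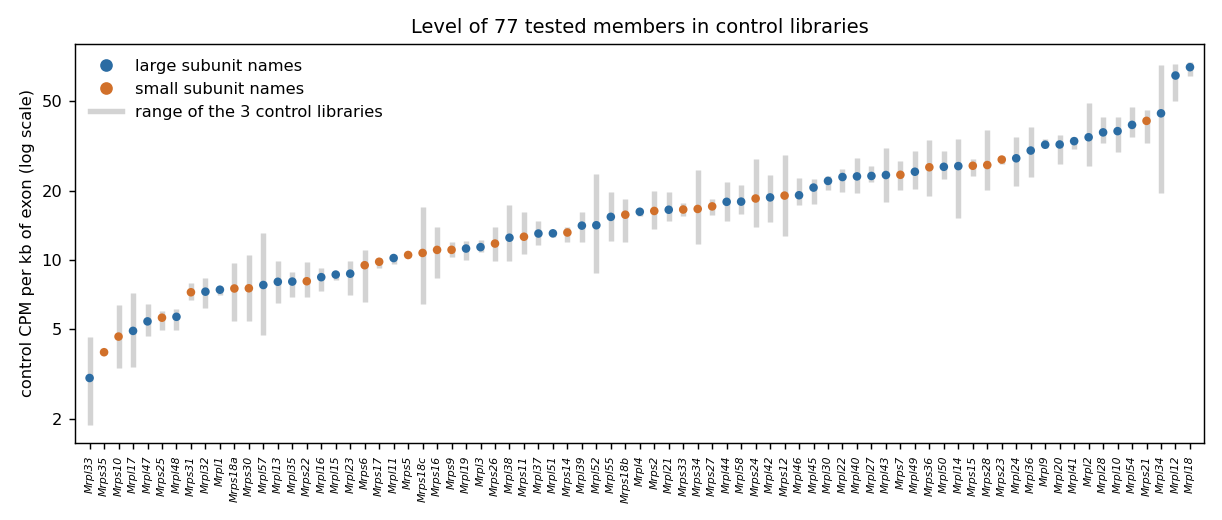
Mean level of the 77 tested members in control libraries, in CPM per kb of exon on a log scale, ordered from lowest to highest. Points are means of 3 control libraries, coloured by subunit name, and grey bars span the lowest to the highest library. Levels rise from 3.03 for Mrpl33 to 70.1 for Mrpl18.

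Counts of all 78 members together were a larger share of the library after PKF118-310 in lines 240 and 352 and a smaller share in line 242. In line 240 they were 0.302% of control counts (95% Wilson interval 0.297 to 0.308) and 0.347% of treated counts (0.341 to 0.354). In line 352 the shares were 0.365% (0.362 to 0.368) and 0.402% (0.398 to 0.405). In line 242 they were 0.290% (0.284 to 0.296) and 0.207% (0.196 to 0.219). Within each line the 2 intervals do not overlap, but they cover counting error only, and each line has 1 library per group. The lanes of line 352 differed by more than sampling noise (chi-square per degree of freedom of 2.01 and 2.05, compared with 0.982 to 1.02 in the other libraries), so the intervals of that line are too narrow. In bulk RNA, fewer cells that express a gene and less of its RNA per cell cannot be told apart. The treated share was 1.148, 1.10 and 0.714 times the control share in lines 240, 352 and 242. The ratio of counts from large to those from small subunit names was 2.04 and 2.11 (control and treated) in line 240, 2.05 and 2.21 in line 242, and 1.99 and 1.96 in line 352, so it moved less than the share in each line.

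**Figure D2:**
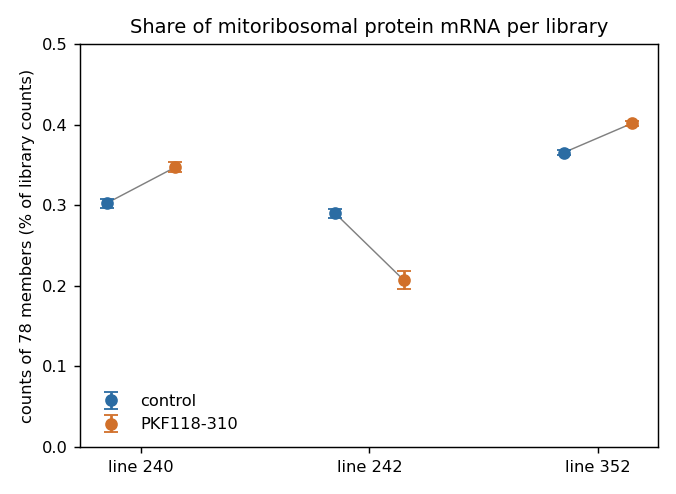
Counts of the 78 members as a percentage of all gene counts in each of the 6 libraries, by line, for control and PKF118-310. Bars are 95% Wilson intervals for counting error. The treated share lies above the control share in lines 240 and 352 (0.347% and 0.402%) and below it in line 242 (0.207%).

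Gene by gene, the change within a line was the log2 ratio of treated over control CPM, with no test. In line 240 the median over 77 members was 0.19, and 55 of 77 (71.4%) lay above 0, as did 50.1% of all 10331 genes. In line 352 the median was 0.12 and again 55 of 77 lay above 0, compared with 49.7% of all genes. In line 242 the median was -0.49, and 17 of 77 (22.1%) lay above 0, compared with 50% of all genes. The median over all tested genes was 0.00 in each line. Among the 5795 tested genes whose mean control CPM fell in the members' range, 11.5 to 98.8 CPM, the medians were -0.01, 0.04 and 0.01 in lines 240, 242 and 352.

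Members were higher in both lines 240 and 352 more often than all genes were, and lower in both less often. In 45 members (58.4%) both lines were higher after treatment, against 34.6% of all genes, and in 12 (15.6%) both were lower, against 34.5%. The lines did not share a direction in 20 of 77 members, beside 3197 of 10331 genes. In 38 members (49.4%) lines 240 and 352 were higher and line 242 lower, a pattern that 18.7% of all genes had. Across members, changes in lines 240 and 352 correlated at r = 0.49, close to the r = 0.48 over all genes. The spread in line 242 was wide, from -2.64 for Mrps12, a bacterial S12 homologue with 42 control counts and 1 treated count, to 1.40 for Mrpl57. In this line 21 of the 77 members had fewer than 10 treated counts. When each library was thinned to 604984 counts, the medians over the 77 members were 0.10, -0.345 and 0.17 in lines 240, 242 and 352.

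**Figure D3:**
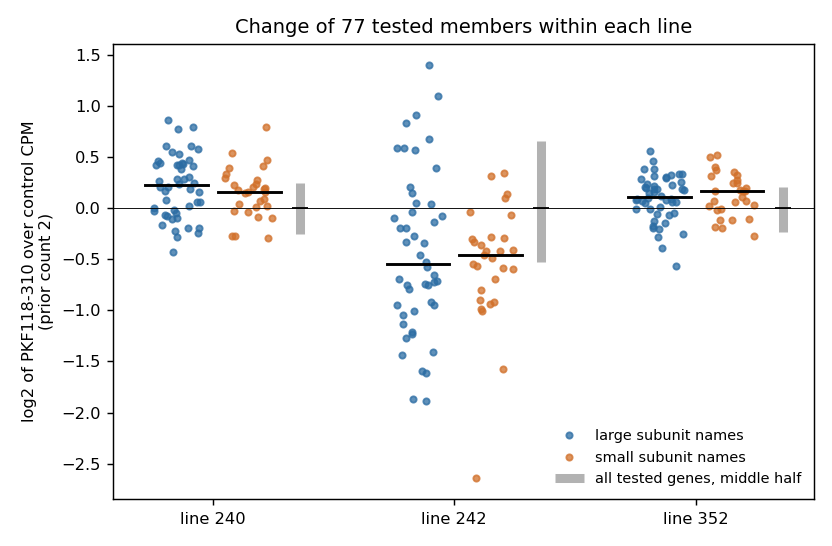
Change of the 77 tested members within each line, as log2 of PKF118-310 over control CPM. Each point is a gene, black lines are medians, and grey bars span the interquartile range of all 10331 tested genes. Members centre at 0.19 in line 240, at -0.49 with a wide spread in line 242 and at 0.12 in line 352.

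In the test over all 3 lines, no member passed the threshold. Of 10331 genes tested with edgeR's quasi-likelihood test and the line as block, 0% were called higher and 0% lower, and the same held for the 77 members. At an unadjusted p under 0.05 there was 1 member, Mrpl17, where 5.52% of all genes were. Limma's voom with sample weights, which gave the libraries of line 242 weights of 0.37 and 0.40, called 1 member higher (Mrpl41) and 1 lower (Mrpl14), beside 3.17% and 4.59% of all genes. DESeq2 called none, beside 0.346% of all genes higher and 0.0987% lower. Mrpl17 read 31.0, 25.8 and 54.6 CPM in the controls of lines 240, 242 and 352 and 44.97, 39.0 and 67.3 CPM after treatment. It was higher in 3 of 3 lines, with a log2 fold change of 0.46 ± 0.17 (edgeR adjusted p = 0.842). The median log2 fold change over members was 0.01, beside 0.00 over all genes.

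With line 242 left out, 2 members rose and none fell. Of 11760 genes, 5.01% were called higher and 5.92% lower, so the 2 of 77 members called higher (2.60%) were fewer than the background share. At an unadjusted p under 0.05, 20 members were higher (26.0%, beside 12.3% of all genes) and 2 lower (2.60%, beside 13.4%). The fit has 1 residual degree of freedom per gene, to which edgeR adds information shared between genes. The median over members was 0.14 and over all genes -0.01, and 59 of 77 members lay above 0.

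Mrpl20 encodes a large subunit protein whose bacterial counterpart is needed early in subunit assembly. It lies on chromosome 4 from 155802878 to 155809975 (mm10, plus strand). Its control levels were 43.7, 57.9 and 58.8 CPM in lines 240, 242 and 352, and its treated levels 79.7, 33.4 and 76.8 CPM. The treated values of lines 240 and 352 lay above every control, and that of line 242 below every control. In lines 240 and 352 it rose by 0.58 ± 0.14 on the log2 scale (edgeR quasi-likelihood adjusted p = 0.0185), and with line 242 included the value was 0.27 ± 0.32 (adjusted p = 0.897).

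Mrpl41, a large subunit protein found only in mitochondria, lies on chromosome 2 from 24974117 to 24975098 (minus strand). It read 30.5, 27.4 and 30.6 CPM in the controls and 42.1, 26.0 and 45.1 CPM after treatment, in the same order of lines. The controls were close together, and only the treated libraries of lines 240 and 352 lay above them. The rise in those lines was 0.52 ± 0.14 (edgeR adjusted p = 0.0365), and with line 242 included it was 0.37 ± 0.20 (adjusted p = 0.843). Over the alternatives run for the 2 lines, the adjusted p ran from 0.0109 to 0.9997 for Mrpl41 and from 0.000653 to 0.9997 for Mrpl20. Mrpl41 passed in 5 of these 10 and Mrpl20 in 6. No member was called higher without the line block, with DESeq2, with the stricter filter or with the counts of line 352 halved.

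The next 4 higher members did not pass the threshold. Mrps18b, one of 3 homologues of bacterial S18, read 25.1 and 43.7 CPM in line 240 (control and treated), 38.7 and 31.6 in line 242, and 35.3 and 43.9 in line 352. Its log2 fold change in lines 240 and 352 was 0.50 ± 0.16 (edgeR adjusted p = 0.0616). Mrpl12 read 76.7 and 114 CPM in line 240, 111 and 29.7 in line 242, and 109 and 126 in line 352, and gave 0.37 ± 0.12 (adjusted p = 0.0667). Both had a treated value in line 242 that lay on the other side of its control from the other lines. Mrps2, a bacterial S2 homologue, gave 0.40 ± 0.13 and Mrpl37, found only in mitochondria, 0.36 ± 0.12 (adjusted p = 0.0685 and 0.0724). Over all 3 lines the 4 gave 0.33 (Mrps18b), -0.15 (Mrpl12), 0.16 (Mrps2) and 0.19 (Mrpl37), with adjusted p of 0.845 to 0.978.

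**Figure D4:**
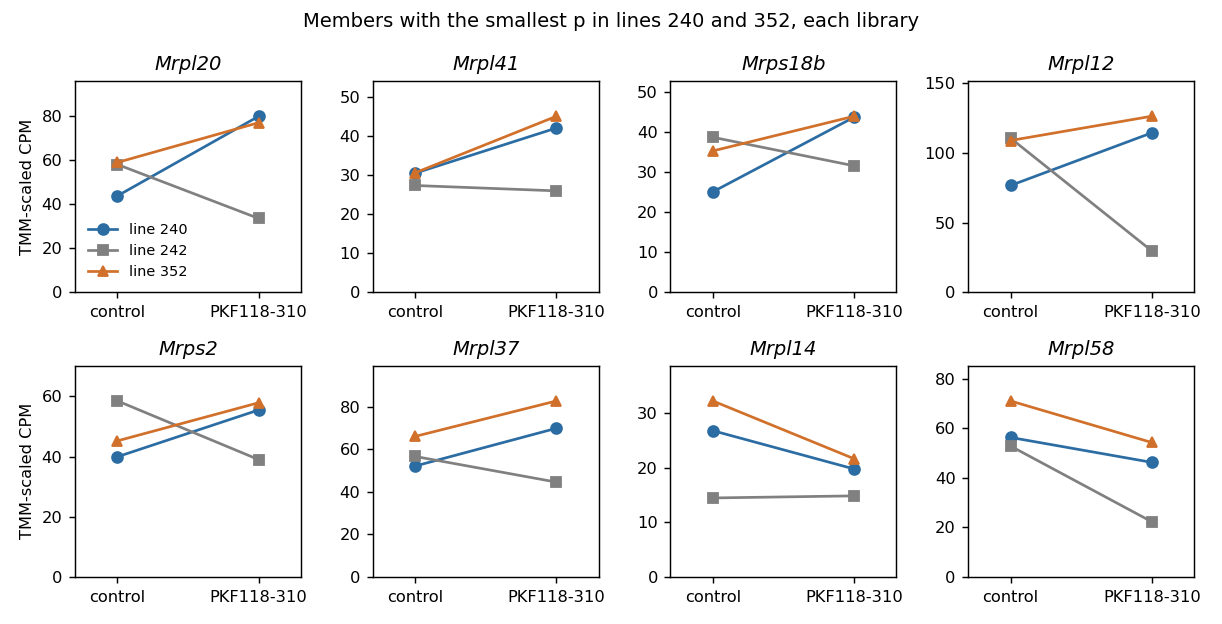
TMM-scaled CPM of the 6 higher and the first 2 lower members by p in lines 240 and 352, in each control and PKF118-310 library. Each line connects the control and treated library of 1 cell line. In the first 6 panels lines 240 and 352 climb while line 242 goes down, and for Mrpl58 all 3 lines go down.

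Lower members were few. Mrpl14, a bacterial L14 homologue at the interface of the subunits, read 26.8 and 19.8 CPM in line 240, 14.5 and 14.8 in line 242, and 32.2 and 21.6 in line 352. Its log2 fold change in lines 240 and 352 was -0.53 ± 0.17 (edgeR adjusted p = 0.0657), and -0.39 ± 0.24 over all 3 (adjusted p = 0.843). Mrpl58, a peptidyl-tRNA hydrolase built into the large subunit that frees stalled chains, read 56.3 and 46.2 CPM, 52.8 and 22.3 CPM, and 71.0 and 54.3 CPM in lines 240, 242 and 352. It was lower in 3 of 3 lines, and 2 of its 3 treated values lay below every control. Its log2 fold change was -0.35 ± 0.12 in lines 240 and 352 and -0.54 ± 0.22 over all 3 (adjusted p = 0.0944 and 0.842). The 4 others named by the rule, Mrpl48, Mrpl54, Mrps28 and Mrpl23, had values between -0.22 and -0.16 with adjusted p of 0.369 to 0.548.

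Among members with a mean above 50 CPM in lines 240 and 352, the 3 nearest to no change there were Mrpl28 (-0.02 ± 0.13), Mrps17 (0.03 ± 0.12) and Mrpl18 (-0.05 ± 0.11), with edgeR adjusted p of 0.950, 0.921 and 0.804. Mrpl28, a bacterial L28 homologue, read 46.6 and 41.5 CPM in line 240, 44.97 and 37.1 in line 242, and 58.7 and 62.2 in line 352, so its treated and control values overlap. Mrpl18 read 103, 89.6 and 101 CPM in the controls and 101, 46.4 and 97.1 CPM after treatment. Of the remaining S18 homologues, Mrps18a gave 0.08 ± 0.16 and Mrps18c 0.02 ± 0.22 in lines 240 and 352, and Mrps30 gave -0.08 ± 0.14 (adjusted p = 0.812, 0.959 and 0.785). Mrps36 gave -0.14 ± 0.16 (adjusted p = 0.643). None of these 4 passed in either fit.

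Members were also grouped by subunit and by descent, and the medians of the classes are given here. In the fit of lines 240 and 352, large subunit names had a median of 0.14 (48 genes, 2 called higher) and small subunit names of 0.10 (29 genes, 0 called). Members listed as having a bacterial homologue had a median of 0.10 (46 genes, 1 called) and those not listed of 0.18 (31 genes, 1 called). The list held Mrps18c but not Mrps18a or Mrps18b, so both of these S18 homologues count among the 31. Over all 3 lines the 4 medians lay between -0.01 and 0.06. In line 242 the medians of the 4 classes lay between -0.56 and -0.42. The differences between classes were not tested, and classes share libraries.

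The lines themselves were compared next. Between lines 240 and 352, with treatment as a term, 25 of 77 members (32.5%) differed, beside 44.7% of all genes. Of these, 22 were higher in line 352, where 59 of all 77 members read higher than in line 240. The matching share over all genes was not counted, so this direction is not read as a trait of the members. Both libraries of a line come from 1 mouse and served as its replicates in this test. The p-values for line differences therefore do not measure spread between mice. Over 3 lines no member differed at the threshold, beside 5.32% of all genes, and the smallest adjusted p was 0.0793 (edgeR), for Mrps24. DESeq2's likelihood ratio test called 1 member, beside 16.1% of all genes.

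Mrps10, a bacterial S10 homologue, read 27.0 and 22.3 CPM in line 240, 33.3 and 24.1 in line 242, and 51.3 and 58.9 in line 352 (control and treated). Line 352 was above both other lines in each group (edgeR adjusted p = 8.06e-05 against line 240 and 0.0858 over 3 lines). Mrpl52, a large subunit protein found only in mitochondria, read 11.2 and 14.7 CPM, 9.75 and 18.6 CPM, and 26.3 and 36.5 CPM in the same order. Its levels were higher after treatment in 3 of 3 lines, and line 352 was again the highest (adjusted p = 0.000145 against line 240). Mrpl57 read 16.1, 13.8 and 38.9 CPM in the controls of lines 240, 242 and 352, and Mrps24, of the bacterial S3 family, 20.6, 20.4 and 40.8 CPM (adjusted p = 9.98e-05 and 0.000265 against line 240). Mrps34 and Mrpl13 also differed in that direction (0.000413 and 0.000898). In Mrps24, 15.4% of exon bases are shared with Urgcp on the same strand, and in Mrps34, 37% with Nme3. Mrps36 went the other way, at 42.7 CPM in control line 240 and 24.3 CPM in control line 352 (adjusted p = 0.00464).

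The rest of the mitochondrial translation machinery was examined through lists, together with lists for mitochondrial transcription and for import and proteases. Their counts are read against the 5.01% of all genes called higher and 5.92% called lower in lines 240 and 352. Of the genes on all these lists that are not members, 14 rose in those lines, 7 of them among the 18 import and protease genes. The number of genes tested is given with each list. All 14 were lower after treatment in line 242. Over all 3 lines 0 of 14 passed, in a fit where 0% of all genes were called in either direction. Their log2 fold changes there were -0.06 to 0.39 (edgeR adjusted p of 0.850 to 0.999). In the fit of lines 240 and 352, 2 of 15 translation factors rose and none fell, namely Gfm1, an elongation factor (0.40 ± 0.12, edgeR adjusted p = 0.0423), and Lrpprc, which stabilises mitochondrial mRNAs (0.35 ± 0.10, adjusted p = 0.0457). In line 242 Gfm1 went from 114 to 65.0 CPM and Lrpprc from 192 to 104 CPM, and over all 3 lines they gave 0.08 and 0.00 (adjusted p = 0.982 and 0.999). Each passed in 4 of the 10 alternatives run for lines 240 and 352. Mtif2, the initiation factor, gave 0.38 ± 0.13 and Tufm, which brings charged tRNAs, 0.28 ± 0.12 (adjusted p = 0.0773 and 0.157). Of 25 assembly and rRNA modification genes, 2 rose and none fell. These were C1qbp, a matrix protein needed for mitochondrial translation (0.45 ± 0.11, adjusted p = 0.0238), and Fastkd2, which binds the large rRNA (0.68 ± 0.18, adjusted p = 0.0317). In line 242 C1qbp went from 233 to 96.5 CPM and Fastkd2 from 28.9 to 18.6 CPM. Over all 3 lines they gave -0.04 and 0.39 (adjusted p = 0.995 and 0.856), and they passed in 6 and 4 of the 10 alternatives. Tfb1m, the methyltransferase of the small rRNA, gave -0.87 ± 0.26 (adjusted p = 0.0520) and Dhx30, a helicase of assembly, 0.29 ± 0.11 (adjusted p = 0.0958). The medians of the 2 lists were 0.07 and 0.25.

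Of 17 mitochondrial aminoacyl-tRNA synthetases, Tars2 rose (0.42 ± 0.12, edgeR adjusted p = 0.0419) and none fell. It went from 56.6 to 35.3 CPM in line 242, gave 0.17 over all 3 lines (adjusted p = 0.933) and passed in 4 of the 10 alternatives for lines 240 and 352. Lars2 read 651 and 262 CPM in line 240, 317 and 362 in line 242, and 436 and 423 in line 352, so that its value of -0.66 ± 0.21 (adjusted p = 0.0685) lay in line 240. Yars2 gave 0.50 ± 0.17 and Ears2 0.33 ± 0.20 (adjusted p = 0.0761 and 0.328). Of mitoribosomal proteins with other names, Ptcd3, of the small subunit, rose by 0.51 ± 0.10 (adjusted p = 0.00972). It went from 134 to 70.5 CPM in line 242, gave 0.12 over all 3 lines (adjusted p = 0.973) and passed in 7 of the 10 alternatives. Aurkaip1 gave 0.24 ± 0.13 and Gadd45gip1 -0.26 ± 0.15 (adjusted p = 0.264 and 0.297). Among 6 tested genes of this list, which includes Mrpl58, 1 rose and none fell.

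Of 13 genes of mitochondrial transcription and its regulators, Pprc1, a coactivator of the PGC-1 family, rose (0.48 ± 0.14, edgeR adjusted p = 0.0456) and none fell. It went from 218 to 111 CPM in line 242, gave 0.08 over all 3 lines (adjusted p = 0.988) and passed in 4 of the 10 alternatives. Esrra gave 0.45 ± 0.21, Mterf1a 0.39 ± 0.32 and Gabpa, the DNA-binding subunit of GABP, -0.19 ± 0.11 (adjusted p = 0.208, 0.491 and 0.299). Myc, known to raise ribosome production, read 239 and 241 CPM in line 240, 354 and 150 in line 242, and 399 and 425 in line 352. It gave 0.05 ± 0.11 in lines 240 and 352 (adjusted p = 0.809). Import and protease genes were the list with the most calls, with 7 of 18 higher, none lower and a median of 0.33. Tomm40, the outer membrane pore, gave 0.64 ± 0.11 and Timm17a, of the inner membrane translocase, 0.60 ± 0.12 (adjusted p = 0.00345 and 0.00829). The matrix chaperonin genes Hspd1 and Hspe1 gave 0.67 ± 0.12 and 0.61 ± 0.10 (adjusted p = 0.00544 and 0.00368). These 4 passed in 8 or 9 of the 10 alternatives for lines 240 and 352, but over all 3 lines they gave 0.28, 0.33, -0.06 and 0.18 (adjusted p of 0.850 to 0.995). In line 242 Hspd1 went from 955 to 293 CPM, and 17 of these 18 genes were lower after treatment.

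The members were set beside the other large groups of ribosomal and mitochondrial genes, without a test of the difference. Of 79 cytosolic ribosomal protein genes in the fit of lines 240 and 352, 1 was called higher and 0 lower, with a median of -0.07, where the members had 0.14. Of 77 nuclear-encoded respiratory chain genes, 2 were called higher and 4 lower, with a median of 0.07. The shares called higher were 1.27% and 2.60%, beside 5.01% of all genes. Of all genes, 5.92% were called lower, so these counts do not exceed the background. In line 242 the medians were -0.49 for members, -0.51 for cytosolic ribosomal proteins and -0.67 for the respiratory chain, while mitochondrially encoded genes had a median of 1.79. Mitochondrially encoded genes also had medians above 0 in lines 240 and 352 (0.23 and 0.73). In the fit of those lines, 4 of 20 such genes were called higher (20%) and 0 lower, with a median of 0.55. The RNAs of the mitoribosome itself belong to that last group, and both read higher after treatment in line 242. The large rRNA, mt-Rnr2, read 1908 and 2241 CPM in line 240, 2066 and 19558 in line 242, and 687 and 2001 in line 352, and rose by 0.89 ± 0.23 in lines 240 and 352 (edgeR adjusted p = 0.0302). The small rRNA, mt-Rnr1, read 749 and 654 CPM, 547 and 15393 CPM, and 475 and 686 CPM in the same order, and gave 0.17 ± 0.16 (adjusted p = 0.545). Libraries were selected for poly(A), so these rRNA levels also depend on the selection.

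**Figure D5:**
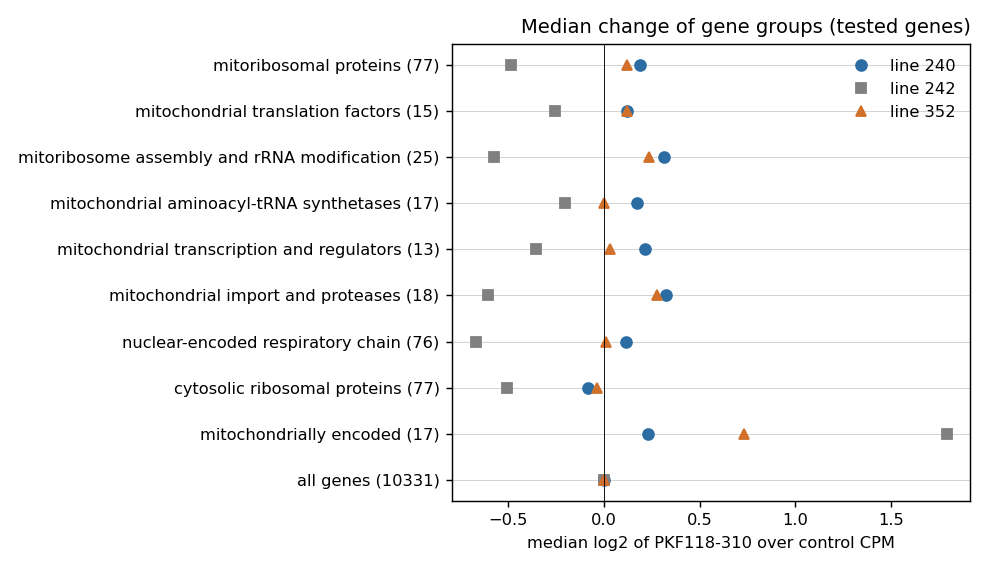
Median log2 of PKF118-310 over control CPM for 10 gene groups in each line, with the number of tested genes in brackets. In line 242 the medians of the 8 nuclear-encoded lists lie to the left of 0 and that of mitochondrially encoded genes to the right (1.79), and members sit at 0.19 and 0.12 in lines 240 and 352.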

How the data were processed

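Poly(A) RNA of 6 libraries (control and PKF118-310 in 3 lines) was measured. The authors deposited unnormalized read counts for each gene, in 12 files (1 for each lane of a library). HISAT2, HTSeq, edgeR and the mm10 build are listed in the submitters' processing notes, while the study's methods list TopHat. No source used here gives their versions. A legend of the study describes 2 cultures per treatment and line, whereas the labels name 2 lanes of 1 library. The labels were followed, and the 2 lanes were summed, giving 604984 to 13766638 counts per library. Intervals and limits for counts of 0 (3 counts) cover counting error only. Each line is a different mouse, so line was the block. Libraries of 1 line deviated together (correlations of 0.657, 0.319 and 0.800 for lines 240, 242 and 352), and the p-values for treatment measure the spread between lines. For line differences, the control and treated libraries of a line served as its replicates. Those p-values do not measure spread between mice.

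In R 4.3.3, edgeR 4.0.16 was used with filterByExpr, TMM scaling and the quasi-likelihood F test over all genes, with Benjamini-Hochberg adjusted p under 0.05 as threshold, in 3 lines and in lines 240 and 352. Log2 fold changes are PKF118-310 over control ± SE. Within-line ratios used a prior count of 2. DESeq2 1.42.0 and limma 3.58.1 served as alternatives, with other scalings, filters and lanes. Scripts were tested on simulated data. Exon lengths came from GENCODE vM21, and positions are those of the files, counted from 1.

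The members and lists were chosen with earlier results of these data known. Named were members past the threshold over 3 lines, the 6 higher and 6 lower with the smallest p in lines 240 and 352, 6 per fit for line differences, the 3 highest and 3 lowest per kb, the 3 nearest to no change above 50 CPM, those not tested, 6 with a particular role, and up to 4 genes per list with Myc. Mrps11, Mrpl46 and Mrps12 were named after their values were seen. Reads shared with near-identical copies or overlapping genes are uncertain.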

Additional observations from a re-analysis of the deposited data

Results flagged for a closer look

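The direction of the members' change differed between lines, which was not tested, since each line has 1 library per group. The median log2 change over 77 members was 0.1881 in line 240 and 0.1179 in line 352, and it was -0.488 in line 242, whose treated library had the fewest counts and the largest mitochondrially encoded share. The part of these features in the difference was not tested. With 3 samples per group, the test for a single outlying sample does not apply.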

How the results depend on the processing

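In the fit of lines 240 and 352, the 2 members called higher became 0 without the line block (no pairing of libraries), 0 with DESeq2, 0 with the stricter filter and 0 with the counts of line 352 halved, 1 in lane 2 alone, 4 without a filter and 5 with the likelihood ratio test. Members called lower went from 0 to 1 without a filter and to 1 with the likelihood ratio test. The median over members stayed between 0.123 and 0.1544 under all 10 alternatives. Without a filter, however, the members' 0.123 lay below the median over all genes, 0.171. In the other alternatives the median over all genes lay between -0.0163 and 0.00771, below that of the members. Over 3 lines, voom with sample weights called 1 higher and 1 lower, and leaving out a line gave 0 to 2 higher, the 2 without line 242. The 3-line median of 0.015 was negative with DESeq2 (-0.0293), without a filter (-0.05703, beside 0.513 over all genes) and without line 240 or 352. It ran from -0.1498 to 0.1366 as lines were left out. Members that differed between lines went from 0 to 1 with DESeq2's likelihood ratio test and from 0 to 25 as lines were left out, the 25 without line 242. Thinned to the smallest total, the within-line medians were 0.1005, -0.345 and 0.1699 in lines 240, 242 and 352, and -0.339 in line 242 over members with at least 10 treated counts, a limit that by construction leaves out members that fell, so it says nothing of stability. They kept their signs under each scaling, prior count and the summed counts. Of 1239 comparisons of 54 named genes with an alternative, 1070 kept their direction and side of the threshold, 51 lost it, 30 gained it and 85 changed sign without passing it. The other 3 turned, all over 3 lines: as lines were left out, C1qbp ran from -0.455 to 0.4469, Hspd1 from -0.5756 to 0.6661 and Lrpprc from -0.2896 to 0.3535. Each of the 3 passed without line 242. Counts of line 352 were halved because its lanes differed. Halved counts, summed counts and the 10-count limit were chosen after seeing the data. Causes were not tested. Depth limits line 242 most, where 3 counts are 4.96 CPM by the unscaled library total.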
